A study of Mus musculus with 12 samples.

Results

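The question addressed here was whether the effect of deleting FoxM1 in satellite cells (SCs, the stem cells of skeletal muscle) differed between injured and uninjured mice. It was measured for each gene as a difference of differences, in which the FoxM1-cKO minus FoxM1fl/fl difference in uninjured SCs is subtracted from the same difference in injured SCs. All 12 libraries of the series entered it, as 3 libraries in each of 4 groups, and 4956 of the 13775 genes in the table were tested. The FoxM1-cKO mice carried FoxM1fl/fl and Pax7Cre/+, and the FoxM1fl/fl mice carried the floxed alleles alone. The Cre is made where Pax7 is expressed, which includes SCs and their embryonic forerunners, so the deletion was not confined to the time of injury. Injured mice received 50 ul of 1.2% BaCl2 into the tibialis anterior and gastrocnemius muscles, and their SCs were taken at 48 h. The mice were 2 months old, and each library was made from about 800 SCs sorted by flow cytometry. The study describes its experiments as made with biological replicates, but the sources used here do not say whether the 3 libraries of a group came from separate mice, so the p-values measure only the spread between these libraries.

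FoxM1 is a forkhead transcription factor that is made in dividing cells and drives genes of the G2 phase and mitosis, such as those of cyclin B1 and the kinase Cdk1. SCs of resting muscle are out of the cell cycle and enter it after injury. A difference of differences near 0 means that the knockout difference was of like size in both conditions, whatever that size was. Values are FPKM (fragments of a transcript, scaled to its length and to the mapped fragments of the library), and differences are on the log2(FPKM + 1) scale.

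Of the 4956 genes tested, 54 were called at an adjusted p under 0.05 by limma with Benjamini-Hochberg adjustment, which is 1.09% of them. The knockout difference was more positive in injured SCs for 30 genes (0.605%) and more negative for 24 (0.484%). Adjusted p ranged between 0.0369 and 0.048, so all 54 lay close under the threshold. At an unadjusted p under 0.05 there were 1076 genes (21.7%). The median difference of differences over all genes tested was 0.17.

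These calls rested on 3 libraries whose values follow a weighted sum of the other 2 libraries of their group. Among genes that had at least 20 FPKM in one of those other libraries and 0 in the other, FoxM1fl/fl injured 1 was above 0 for 100% and 99.4%, at median ratios of 0.676 and 0.322. For FoxM1-cKO uninjured 2 the shares were 92.9% and 96.7% at ratios of 0.439 and 0.526, and for FoxM1fl/fl uninjured 1 they were 98% and 94.3% at ratios of 0.883 and 0.105. In these 3 groups the spread among 3 libraries is therefore not a spread among 3 independent ones. Leaving out any 1 of the 3 libraries gave 0 calls. The number of genes at an unadjusted p under 0.05 was 774 after dropping FoxM1fl/fl injured 1, 804 after dropping FoxM1-cKO uninjured 2 and 775 after dropping FoxM1fl/fl uninjured 1. With all 3 left out limma also gave 0 calls, 245 genes (4.94%) at an unadjusted p under 0.05 and a lowest adjusted p of 0.802. The difference of differences of the 54 genes then had SEs between 1.05 and 3.72, against 0.663 to 2.94 with 12 libraries. The values below are those of the genes that the fit to 12 libraries called, and none of them was called in the 9 libraries.

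Depth differed with injury and with genotype. Depth read from the steps of the FPKM values was between 907562 and 2854515 reads in the 6 injured libraries and between 170700 and 642011 in the 6 uninjured ones. After injury every FoxM1-cKO library (1693000 to 2854515 reads) was deeper than every FoxM1fl/fl library (907562 to 1284058). In uninjured SCs the order was the other way for 2 of the 3 FoxM1fl/fl libraries, with 170700 to 238174 reads in FoxM1-cKO against 600584, 642011 and 174827 in FoxM1fl/fl libraries. With reads thinned once to 170700 in each library, limma called 181 genes, 52 of the 54 among them. Genes above 0 FPKM numbered 4462 to 7577 in injured libraries and 1178 to 3423 in uninjured ones. The genes of the surface proteins the cells were sorted for were sparse. Itga7, the alpha 7 integrin, was above 0 in 2 of the 12 libraries and at no more than 3.02 FPKM, and Cd34 was above 0 in 6 libraries and at no more than 9.6 FPKM. Of other SC markers, Vcam1, Cdh15 and Chodl were at 0 in all 6 uninjured libraries, while the surface proteoglycan gene Sdc4 was above 0 in 11 libraries. Myod1 had 0, 15.5 and 42.9 FPKM in FoxM1-cKO uninjured libraries and 0 in FoxM1fl/fl uninjured ones. In injured libraries Myod1 had no more than 0.952 FPKM. Megf10 was at 0 in FoxM1-cKO uninjured libraries and had 9.97, 11.6 and 0 FPKM in FoxM1fl/fl uninjured ones. Its highest value in injured libraries was 9.39 FPKM. Ptprc, which encodes the CD45 against which the cells were sorted, was at 224 and 248 FPKM in FoxM1fl/fl uninjured 1 and 2 and at no more than 0.103 FPKM in the other libraries. Pax7 and Myf5 were not analysed here. In bulk libraries such as these, fewer cells of a type and less RNA per cell cannot be told apart.

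Marker lists moved with the groups. Genes of SC identity (33 of 36 listed are in the table) made up 0.0359% to 0.0984% of summed FPKM in FoxM1-cKO injured and 0.0116% to 0.34% in FoxM1fl/fl injured libraries, which overlap, and 0.11% to 0.198% in FoxM1-cKO uninjured against 0.0267% to 0.0579% in FoxM1fl/fl uninjured libraries, which do not. Few genes carried this gap. List sums in FoxM1-cKO uninjured 1, 2 and 3 were 1414, 1019 and 601 FPKM. Of these the called gene Msc held 1302, 641 and 41 FPKM. Sdc4 had 0, 301 and 458 FPKM there. In FoxM1fl/fl uninjured libraries Msc was at 0 and Sdc4 had 104, 128 and 48.9 FPKM. Genes of the mature myofibre (42 of 48 listed are in the table) made up 14.2% to 26.7% of summed FPKM in FoxM1-cKO uninjured libraries and 1.83% to 6.71% in FoxM1fl/fl uninjured ones, against 0.208% to 0.371% in FoxM1-cKO injured and 0.0831% to 0.293% in FoxM1fl/fl injured libraries. Myofibre sums in FoxM1-cKO uninjured 1, 2 and 3 were 191263, 128978 and 77612 FPKM. Pgam2 alone held 95161, 49830 and 10742 FPKM of them. Macrophage markers (18 of 25 listed are in the table) took 0.00169% to 0.09% in FoxM1-cKO injured, 0.0668% to 0.228% in FoxM1fl/fl injured, 0% in all FoxM1-cKO uninjured and 0% to 0.265% in FoxM1fl/fl uninjured libraries. Only 2 of the 18 were above 0 in any FoxM1fl/fl uninjured library, against 16 in FoxM1fl/fl injured and 13 in FoxM1-cKO injured ones. Fibro-adipogenic and tendon markers (21 of 23) took 0.377% to 0.565%, 0.117% to 0.141%, 0.609% to 1.19% and 0.818% to 2.48% in the same order of groups. Sums of this list in FoxM1fl/fl uninjured 1, 2 and 3 were 14422, 15047 and 5910 FPKM. The called gene Serpinf1 alone held 7014, 7572 and 2907 FPKM of them. The part of SCs and of these other cell types in the calls below was not tested.

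**Figure D1:**
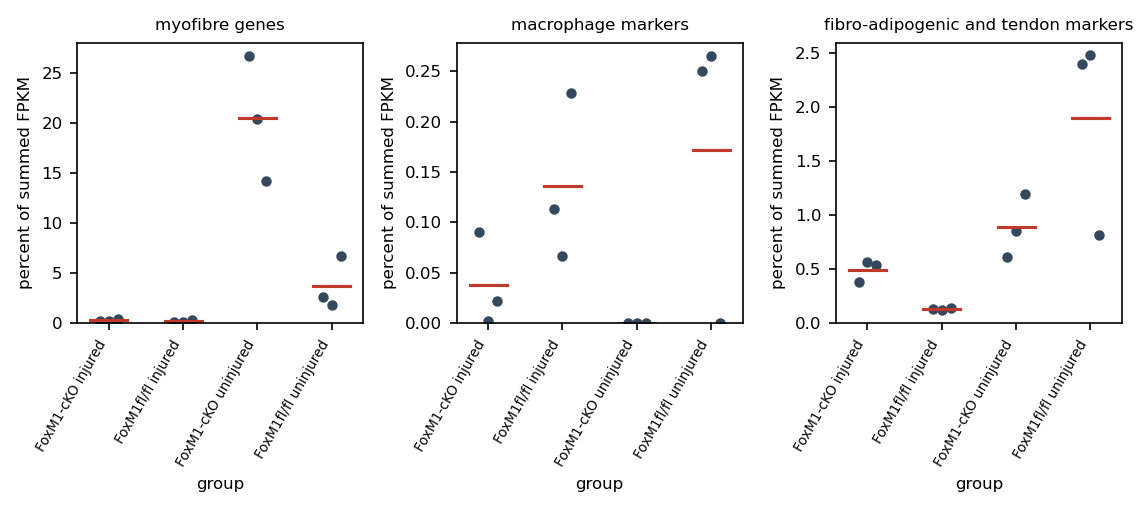
Share of summed FPKM (y axis, percent) taken by myofibre genes, macrophage markers and fibro-adipogenic and tendon markers in each library (points), by group (x axis), with red lines at the group means. The myofibre share is 14.2% or more in the 3 FoxM1-cKO uninjured libraries and 6.71% or less in the other 9.

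The 54 genes fell into 3 patterns, defined after their values were seen. For 26 of them all 6 uninjured libraries were below 1 FPKM, and in fact at 0, so the difference of differences equals the injured difference. For 6, all 6 injured libraries were below 1 FPKM and the uninjured difference carries it. The other 22 had at least 1 FPKM in both conditions. Over all genes tested the shares of the 3 patterns were 42.5%, 1.27% and 56.3%, against 48.1%, 11.1% and 40.7% of the called genes, and all 6 uninjured libraries were at 0 FPKM for 1925 of the genes tested (38.8%). At least 1 whole group was at 0 for 49 of the 54 genes, as it was for 81% of all genes tested, and only 2 of the 54, Serpinf1 and Rps4x, were above 0 in all 12 libraries. For genes with a group at 0 the size of the difference depends on the pseudocount and is no bound.

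**Figure D2:**
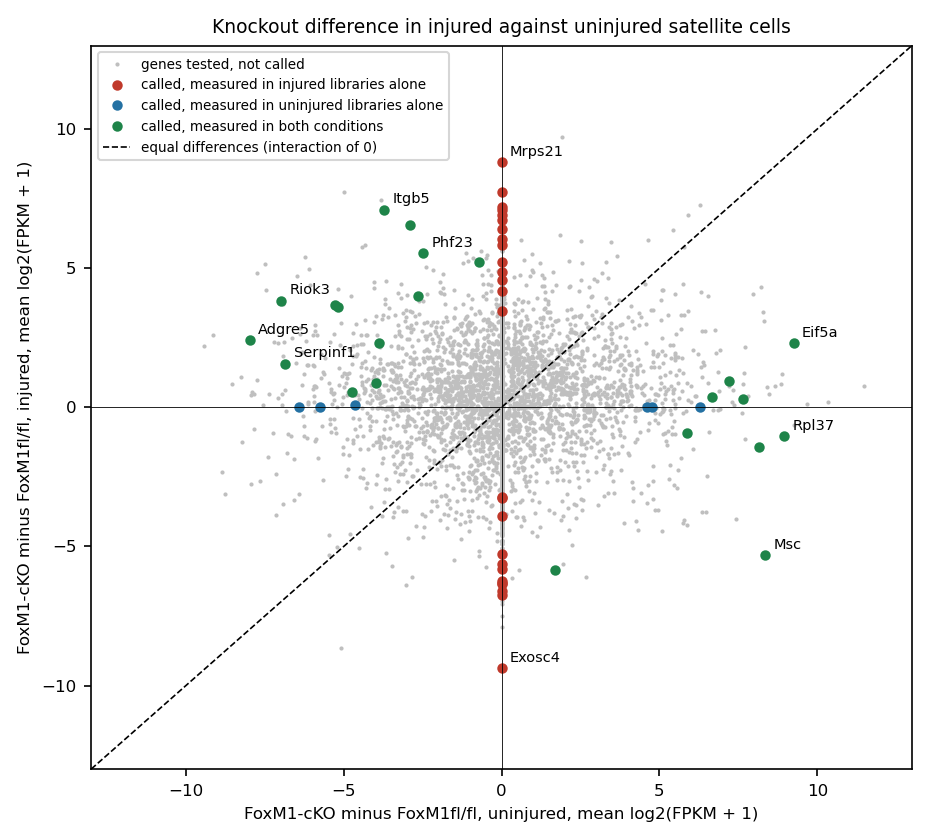
FoxM1-cKO minus FoxM1fl/fl difference in injured SCs (y axis) against that in uninjured SCs (x axis), both as mean log2(FPKM + 1), for 4956 tested genes. The 54 called genes lie far from the dashed line of equal differences, and 26 of them lie on the vertical axis, where uninjured libraries were at 0.

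Among the 22 genes measured in both conditions, 8 had groups that did not overlap in either condition and knockout differences of opposite sign. The pattern was found for 39 of the 2789 tested genes measured in both conditions, and for 40 of all genes tested (0.807%). Because the 22 were picked by a large difference of differences, which crossing favours, the comparison tests nothing. Riok3, an atypical kinase with a part in maturation of the small ribosomal subunit (chr18:12128741-12157387, plus strand, mm10), had 1186, 440.1 and 265 FPKM in FoxM1-cKO injured libraries and 32.4, 19.1 and 70.1 FPKM in FoxM1fl/fl injured ones. In uninjured SCs it had 1.6, 3.16 and 0 FPKM in FoxM1-cKO and 567, 594 and 62.5 FPKM in FoxM1fl/fl libraries. Every FoxM1-cKO library was thus above every FoxM1fl/fl library in injured SCs and below every one in uninjured SCs. Its difference of differences was 10.81 (SE 1.76, adjusted p = 0.0369 by limma), and 10.69 (SE 2.48) in the 9 libraries.

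Nolc1, a nucleolar phosphoprotein that serves ribosome biogenesis (chr19:46075863-46085530, plus strand), crossed in the same way. It had 103, 228 and 98.1 FPKM in FoxM1-cKO injured libraries, against 7.94, 8.57 and 11.8 FPKM in FoxM1fl/fl injured ones. It was at 0 in all 3 FoxM1-cKO uninjured libraries, against 73.3, 107 and 6.3 FPKM in FoxM1fl/fl uninjured ones. Its difference of differences was 8.97 (SE 1.64, adjusted p = 0.0406). Phf23, a PHD finger protein that binds methylated histone H3, had 2030.3, 217 and 248 FPKM in FoxM1-cKO injured and 7.05, 10.6 and 10.9 FPKM in FoxM1fl/fl injured libraries. In uninjured SCs it had 0, 2.61 and 7.59 FPKM in FoxM1-cKO and 21.1, 14.1 and 15.5 FPKM in FoxM1fl/fl libraries. The groups were apart in both conditions, and the difference of differences was 8.02 (SE 1.72, adjusted p = 0.0432). Adgre5, the adhesion receptor CD97 found on leukocytes and other cells, had 203, 15.9 and 35.7 FPKM in FoxM1-cKO injured and 6.5, 7.27 and 12.5 FPKM in FoxM1fl/fl injured libraries. It was at 0 in the 3 FoxM1-cKO uninjured libraries, against 291, 22.8 and 2296 FPKM in FoxM1fl/fl uninjured ones. These last 3 values spread widely, and the difference of differences was 10.39 (SE 2.16, adjusted p = 0.0422).

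Tsen34, a subunit of the tRNA splicing endonuclease, and Pex2, a peroxisome import factor, crossed in the same direction at lower levels, with differences of differences of 6.64 and 4.85. Bzw2, which modulates the choice of start codons in translation, crossed the other way. It had 3.46, 10 and 13.2 FPKM in FoxM1-cKO injured and 19.1, 14.5 and 14.8 FPKM in FoxM1fl/fl injured libraries, and 74, 43.4 and 58 FPKM in FoxM1-cKO uninjured libraries against 0 in all 3 FoxM1fl/fl uninjured ones. Its injured groups were separated by a narrow gap, and its difference of differences was −6.8 (SE 1.33, adjusted p = 0.0422).

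**Figure D3:**
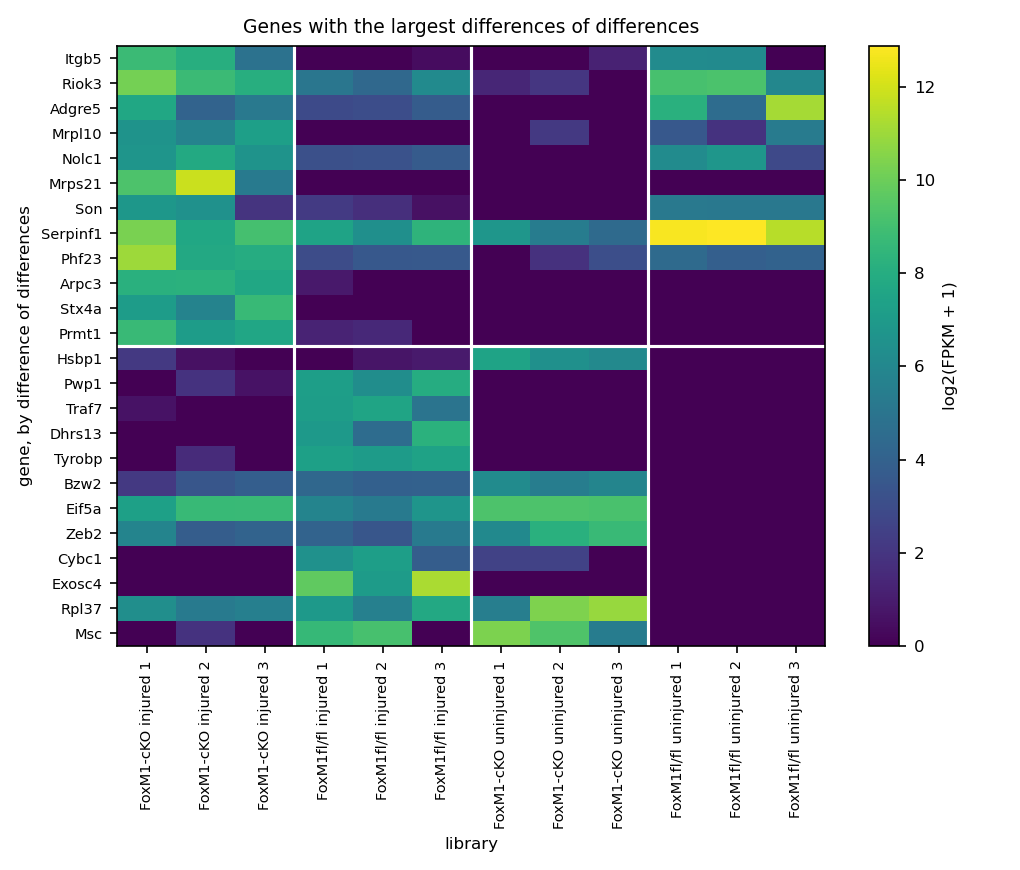
log2(FPKM + 1) (colour) in each of the 12 libraries (x axis) for the 12 called genes with the largest positive and the 12 with the largest negative difference of differences (y axis), leaving out pseudogenes, genes of no protein, predicted or clone names and genes under 5 FPKM in their highest group. Genes above the white line have their highest values in FoxM1-cKO injured or FoxM1fl/fl uninjured libraries, and the 12 genes below it are all at 0 in the 3 FoxM1fl/fl uninjured libraries.

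Further genes measured in both conditions were more positive in injured SCs without crossing. Itgb5, the integrin beta 5 chain, had 437.5, 272 and 28.3 FPKM in FoxM1-cKO injured and 0, 0 and 0.357 FPKM in FoxM1fl/fl injured libraries. It had 0, 0 and 1.36 FPKM in FoxM1-cKO uninjured and 74.4, 70.6 and 0 FPKM in FoxM1fl/fl uninjured libraries. Its injured groups were apart and its uninjured groups overlapped, and its difference of differences of 10.82 (SE 2.26, adjusted p = 0.0422) was the largest positive one among the called genes. Serpinf1, the secreted factor PEDF and one of the fibro-adipogenic and tendon markers, was abundant in uninjured FoxM1fl/fl SCs. It had 1235.5, 200.5 and 536 FPKM in FoxM1-cKO injured and 175, 85.9 and 337 FPKM in FoxM1fl/fl injured libraries, which overlap. It had 109, 41 and 20.6 FPKM in FoxM1-cKO uninjured and 7014, 7572 and 2907 FPKM in FoxM1fl/fl uninjured libraries, which do not overlap. Its difference of differences was 8.42 (SE 1.5, adjusted p = 0.0369). Son, a splicing cofactor of nuclear speckles, had 112, 90.6 and 2.89 FPKM in FoxM1-cKO injured and 3.57, 2.32 and 0.505 FPKM in FoxM1fl/fl injured libraries, and 0 in the 3 FoxM1-cKO uninjured libraries against 35.5, 35 and 34.7 FPKM in FoxM1fl/fl uninjured ones. Its gene overlaps Donson on the other strand, and its difference of differences was 8.77 (SE 1.78, adjusted p = 0.0422).

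In the other direction, 9 genes measured in both conditions were more negative in injured SCs, and 8 of them were at 0 in all 3 FoxM1fl/fl uninjured libraries. The exception was Rps4x, a protein of the small ribosomal subunit. It had 3131, 6941 and 7010.3 FPKM in FoxM1-cKO injured and 2714, 2156 and 3675 FPKM in FoxM1fl/fl injured libraries, which overlap. In uninjured SCs it had 4386, 8127 and 11502 FPKM in FoxM1-cKO libraries, against 29, 16 and 246 FPKM in FoxM1fl/fl ones, and its difference of differences was −6.27 (SE 1.38, adjusted p = 0.048). Eif5a, the translation factor that carries hypusine, had 159, 417 and 428 FPKM in FoxM1-cKO injured and 55.4, 38.5 and 104 FPKM in FoxM1fl/fl injured libraries. It had 619.7, 619.8 and 590.2 FPKM in FoxM1-cKO uninjured libraries and 0 in the FoxM1fl/fl uninjured ones. The knockout difference of Eif5a was positive in both conditions and smaller after injury, with a difference of differences of −6.94 (SE 1.41, adjusted p = 0.0422). Rpl37, a protein of the large ribosomal subunit, had 80.7, 37.7 and 46.7 FPKM in FoxM1-cKO injured and 119, 48 and 219 FPKM in FoxM1fl/fl injured libraries. It had 44.3, 1363 and 1929 FPKM in FoxM1-cKO uninjured libraries and 0 in the FoxM1fl/fl uninjured ones, and its difference of differences was −9.98 (SE 1.98, adjusted p = 0.0422). The processed copy Rpl37rt had −9.59, and because the pair share sequence their reads may have been split between them.

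Msc, the basic helix-loop-helix factor musculin of myogenic cells and the only call on the SC identity list, had the most negative value of all genes tested, −13.66 (SE 2.94, adjusted p = 0.0432). It had 0, 2.71 and 0 FPKM in FoxM1-cKO injured libraries and 402, 563 and 0 FPKM in FoxM1fl/fl injured ones. It had 1302, 641 and 41 FPKM in FoxM1-cKO uninjured libraries and 0 in the 3 FoxM1fl/fl uninjured ones. FoxM1fl/fl injured 3 was at 0 like the FoxM1-cKO injured libraries, so the injured groups overlapped, and without the weighted-sum libraries the value was −11.81 (SE 3.72). Zeb2, a zinc finger repressor, had 54.8, 13.1 and 16.4 FPKM in FoxM1-cKO injured and 16.1, 10.1 and 37.7 FPKM in FoxM1fl/fl injured libraries, which overlap. It had 67.4, 287 and 421 FPKM in FoxM1-cKO uninjured libraries and 0 in the FoxM1fl/fl uninjured ones, for −7.36 (SE 1.58, adjusted p = 0.0432). Hsbp1, a small inhibitor of the heat shock factor, was below 4 FPKM in all 6 injured libraries and had 179, 86.2 and 66 FPKM in FoxM1-cKO uninjured libraries against 0 in FoxM1fl/fl uninjured ones, for −6.31 (SE 1.3, adjusted p = 0.0422).

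Of the 26 genes at 0 in all uninjured libraries, 14 were higher in FoxM1-cKO injured and 12 in FoxM1fl/fl injured libraries. The worth of 1 read in the shallowest uninjured library (FoxM1-cKO uninjured 1) was between 0.936 and 15 FPKM for these genes, and for 24 of the 26 the mean of their highest group exceeded the worth of 3 reads there. The exceptions were Hbb-bs, with a mean of 15.1 FPKM against 28 FPKM for 3 reads, and Slpi, with 19.2 against 20.1 FPKM in that library. A level under the worth of 1 read there could not be seen. Arpc3, which belongs to the actin-branching Arp2/3 complex (chr5:122391878-122414184, plus strand), had 291, 297 and 203 FPKM in FoxM1-cKO injured and 0.868, 0 and 0 FPKM in FoxM1fl/fl injured libraries. The groups were far apart, and the difference of differences was 7.73 (SE 1.16, adjusted p = 0.0369). Prmt1, the main arginine methyltransferase, had 424, 140.3 and 198 FPKM in FoxM1-cKO injured and 1.45, 1.81 and 0 FPKM in FoxM1fl/fl injured libraries, for 6.91 (SE 1.26, adjusted p = 0.0406). Stx4a, a plasma membrane syntaxin, had 139, 52.7 and 411 FPKM in FoxM1-cKO injured libraries and 0 in the FoxM1fl/fl injured ones, for 7.19 (SE 1.28, adjusted p = 0.0369). Tacc3, which stabilizes the mitotic spindle, had 30.2, 96.2 and 58.7 FPKM in FoxM1-cKO injured libraries and 0 in the FoxM1fl/fl injured ones, for 5.82 (SE 1.08, adjusted p = 0.0422). It was the only called gene of the G2 and mitosis list, and the sign was positive, towards the knockout.

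Mthfd2, a mitochondrial enzyme of one-carbon metabolism, had 67.9, 260.3 and 184 FPKM in FoxM1-cKO injured and 1.5, 0.747 and 1.59 FPKM in FoxM1fl/fl injured libraries, for 6.06 (SE 1.23, adjusted p = 0.0422). Mrps21, a mitochondrial ribosomal protein, had 628, 3712 and 36.8 FPKM in FoxM1-cKO injured libraries, a wide spread, and 0 in the FoxM1fl/fl injured ones, for 8.8 (SE 1.89, adjusted p = 0.0432). Mrpl10 and Mrps17, of the same organelle's ribosome, were measured in both conditions and had differences of differences of 9.44 and 5.93. The 26S proteasome ATPase gene Psmc2, the aminopeptidase gene Lap3 and the prolyl isomerase gene Fkbp11 had 4.57, 5.23 and 6.42.

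Among the 12 genes higher in FoxM1fl/fl injured libraries, some singled out after their values were seen are genes of blood cells or of a chemokine that attracts them. Tyrobp, the signalling adaptor DAP12 of myeloid cells, had 0, 1.98 and 0 FPKM in FoxM1-cKO injured and 158, 133 and 169.8 FPKM in FoxM1fl/fl injured libraries, for −6.74 (SE 1.19, adjusted p = 0.0369). Ccl8, a monocyte-attracting chemokine, was at 0 in FoxM1-cKO injured libraries, against 62.6, 51.8 and 51.8 FPKM in FoxM1fl/fl injured ones, for −5.81 (SE 1.02, adjusted p = 0.0369). The leukocyte genes Cd300a and Plek had −3.25 and −3.24, and the beta globin gene Hbb-bs had −3.91. Of the 10 macrophage markers tested, Tyrobp was called, 7 had a negative value, and the median was −2.36 against 0.17 over all genes tested. An unadjusted p under 0.05 by limma was found for 5 of the 10, against 21.7% of all genes tested. The defining macrophage marker Csf1r was at 0.166 FPKM in FoxM1fl/fl injured 1 and at 0 in the other 11 libraries, while Lyz2 had 621, 4.04 and 99.9 FPKM in FoxM1-cKO injured and 454, 30.2 and 1330.4 FPKM in FoxM1fl/fl injured libraries. The part of blood cells in these calls was not tested.

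Other called genes were also higher in FoxM1fl/fl injured libraries. Exosc4, a core subunit of the RNA exosome that degrades and trims RNA (chr15:76327397-76330677, plus strand), was at 0 in FoxM1-cKO injured libraries, against 856, 135 and 2449 FPKM in FoxM1fl/fl injured ones. Its difference of differences was −9.36 (SE 1.5, adjusted p = 0.0369), and −9.17 (SE 2.26) in the 9 libraries. Pwp1, a chromatin protein of ribosomal RNA gene transcription, had 0, 2.76 and 0.566 FPKM in FoxM1-cKO injured and 148, 78.7 and 252 FPKM in FoxM1fl/fl injured libraries, for −6.32 (SE 1.26, adjusted p = 0.0422). Traf7, a ubiquitin ligase, had 0.548, 0 and 0 FPKM in FoxM1-cKO injured and 141, 185 and 30 FPKM in FoxM1fl/fl injured libraries, for −6.34 (SE 1.26, adjusted p = 0.0422). Cybc1, a chaperone of the phagocyte NADPH oxidase, was at 0 in FoxM1-cKO injured libraries, against 90.7, 148 and 12.8 FPKM in FoxM1fl/fl injured ones. It was at 4.85, 4.79 and 0 FPKM in FoxM1-cKO uninjured and at 0 in FoxM1fl/fl uninjured libraries, for −7.53 (SE 1.53, adjusted p = 0.0422). Dhrs13, a short-chain dehydrogenase, had −6.58, and Fundc2 and Myg1, whose products are found at mitochondria, had −5.26 and −5.63.

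The 6 genes below 1 FPKM in all injured libraries divided evenly. Faim, an inhibitor of apoptosis through Fas, was at 0 in FoxM1-cKO uninjured libraries, against 103, 121 and 49.7 FPKM in FoxM1fl/fl uninjured ones, for 6.43 (SE 1.1, adjusted p = 0.0369). Irf9, the DNA-binding part of the interferon-activated ISGF3 complex, was at 0 in FoxM1-cKO uninjured libraries, against 17.2, 14.1 and 54.7 FPKM in FoxM1fl/fl uninjured ones, for 4.7 (SE 1.01, adjusted p = 0.0432). Sh3rf2 followed the same order, with 5.74. Mettl21c, a protein methyltransferase of skeletal muscle, had 32, 24.9 and 22.9 FPKM in FoxM1-cKO uninjured and 0 in FoxM1fl/fl uninjured libraries, for −4.77 (SE 0.909, adjusted p = 0.0422). Ppp1r27, also expressed in muscle, had 22.8, 113 and 180 FPKM in FoxM1-cKO uninjured and 0 in FoxM1fl/fl uninjured libraries, for −6.3 (SE 1.26, adjusted p = 0.0422), and Snx24 had −4.59. The FoxM1-cKO uninjured libraries are those in which myofibre genes took 14.2% or more of summed FPKM.

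Foxm1 itself was not called. It had 3.48, 1.28 and 0.832 FPKM in FoxM1-cKO injured and 32.8, 29.4 and 42 FPKM in FoxM1fl/fl injured libraries, and 0 in the FoxM1-cKO uninjured libraries against 5.48, 8.95 and 7.38 FPKM in FoxM1fl/fl uninjured ones. FoxM1-cKO was below FoxM1fl/fl without overlap in both conditions, and the difference of differences was −0.71 (SE 1.22, adjusted p = 0.766 by limma). Ccnb1, the cyclin of mitotic entry, had 10.3, 1.42 and 0.779 FPKM in FoxM1-cKO injured and 279.9, 425 and 130.3 FPKM in FoxM1fl/fl injured libraries. It was at 0 in FoxM1-cKO uninjured libraries, against 6.02, 6.88 and 5.67 FPKM in FoxM1fl/fl uninjured ones, and its difference of differences of −3.26 (SE 1.46, adjusted p = 0.217) was not called. The values of Foxm1 and of Ccnb1 do not resolve into whole reads, whereas those of all but 8 of the 13775 genes do. Neither gene is therefore a firm check of the genotype labels. Cdk1, the partner kinase of cyclin B, had 2, 8.1 and 76.9 FPKM in FoxM1-cKO injured and 254, 373 and 0 FPKM in FoxM1fl/fl injured libraries and was at 0 in all uninjured ones, for −1.83 (SE 2.67, adjusted p = 0.716). Cdc20, an activator of the anaphase-promoting complex, had 0.59 (SE 1.23, adjusted p = 0.814).

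Genes of the beta-catenin destruction complex, which marks beta-catenin for degradation, were not called either. Apc, its scaffold, had 0, 0 and 0.118 FPKM in FoxM1-cKO injured and 4.11, 7.57 and 10.2 FPKM in FoxM1fl/fl injured libraries, and 0 in the FoxM1-cKO uninjured libraries against 0.135, 0 and 0 FPKM in FoxM1fl/fl uninjured ones. Its injured groups did not overlap, and its difference of differences of −2.86 (SE 0.686, adjusted p = 0.0562) lay just outside the threshold. Gsk3b, its kinase, had 42.4, 4.2 and 16.3 FPKM in FoxM1-cKO injured and 484, 5.91 and 1471 FPKM in FoxM1fl/fl injured libraries, and 249, 118 and 0 FPKM in FoxM1-cKO uninjured libraries against 0, 0.188 and 0.689 FPKM in FoxM1fl/fl uninjured ones. The groups of Gsk3b overlapped in both conditions, and it had −8.05 (SE 3.07, adjusted p = 0.158). The ubiquitin ligase subunit gene Skp1a had 5.97 (SE 3.61, adjusted p = 0.358), and Ctnnb1, which encodes beta-catenin, had 0.63 (SE 1.57, adjusted p = 0.847). The growth factor genes Tgfb2 and Tgfb3 had 1.38 (SE 1.57, adjusted p = 0.632) and 1.86 (SE 1.07, adjusted p = 0.34). Axin1, Fzr1, Ccnb2, Ccnd3 and Ccng2 did not reach 1 FPKM in 3 libraries and were not tested.

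Of 36 gene lists, 33 had a tested member and 16 had a called one, and 20 of the 54 called genes were on a list. No list had more than 3 calls. Over all genes tested, 0.605% were called more positive and 0.484% more negative, 21.7% had an unadjusted p under 0.05, and values were above 0 for 52.9% and below 0 for 47.1%. Mitochondrial ribosomal proteins had 3 of 50 tested members more positive and none more negative, with a median of 0.56, and cytosolic ribosomal proteins had 2 of 82 more negative, with a median of −0.28. At an unadjusted p under 0.05 there were 18 of the 50 mitochondrial and 18 of the 82 cytosolic ones. Ribosome biogenesis and RNA exosome genes had 1 call in each direction (Nolc1 and Exosc4) among 52, with a median of 0.01. The G2 and mitosis list had 1 of 24 called and a median of −0.07, the G1/S and DNA replication list had 0 of 29 called and 6 at an unadjusted p under 0.05, and the Wnt and beta-catenin list had 0 of 27 called, 7 at an unadjusted p under 0.05 and a median of −1.04. The shares at an unadjusted p under 0.05 in these 2 lists were thus near that of all genes.

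Among the 31 lists with at least 5 tested members, those with medians farthest from that of all genes (0.17) were glycolysis, macrophage markers, collagens with laminins and integrins, and myofibre genes, singled out after their values were seen. For glycolysis the median was −2.39 over 16 tested genes, 13 of them negative (against 47.1% of all genes) and none called by limma, with 4 at an unadjusted p under 0.05. Aldoa, the aldolase of muscle, had 93.2, 159 and 36 FPKM in FoxM1-cKO injured and 31.7, 34.7 and 39.1 FPKM in FoxM1fl/fl injured libraries, and 18.9, 1740 and 3114 FPKM in FoxM1-cKO uninjured libraries against 0 in FoxM1fl/fl uninjured ones, with adjusted p = 0.0882. For myofibre genes the median was −1.77 over 37 genes, 25 of them negative and none called, with 8 at an unadjusted p under 0.05, a share like that of all genes. For collagens, laminins and integrins the median was 2.1 over 38 genes, 28 of them positive (against 52.9% of all genes), and Itgb5 was the only call. Of these 38 genes, 12 had an unadjusted p under 0.05 by limma, against 21.7% of all genes tested. Of this list, Col5a1, a fibrillar collagen chain, had 437.8, 112 and 137 FPKM in FoxM1-cKO injured and 2.88, 3.61 and 2.23 FPKM in FoxM1fl/fl injured libraries, and 0, 0.688 and 2 FPKM in FoxM1-cKO uninjured libraries against 0.198, 0 and 15 FPKM in FoxM1fl/fl uninjured ones, with a difference of differences of 6.26 (SE 1.7, adjusted p = 0.0723) that was not called.

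**Figure D4:**
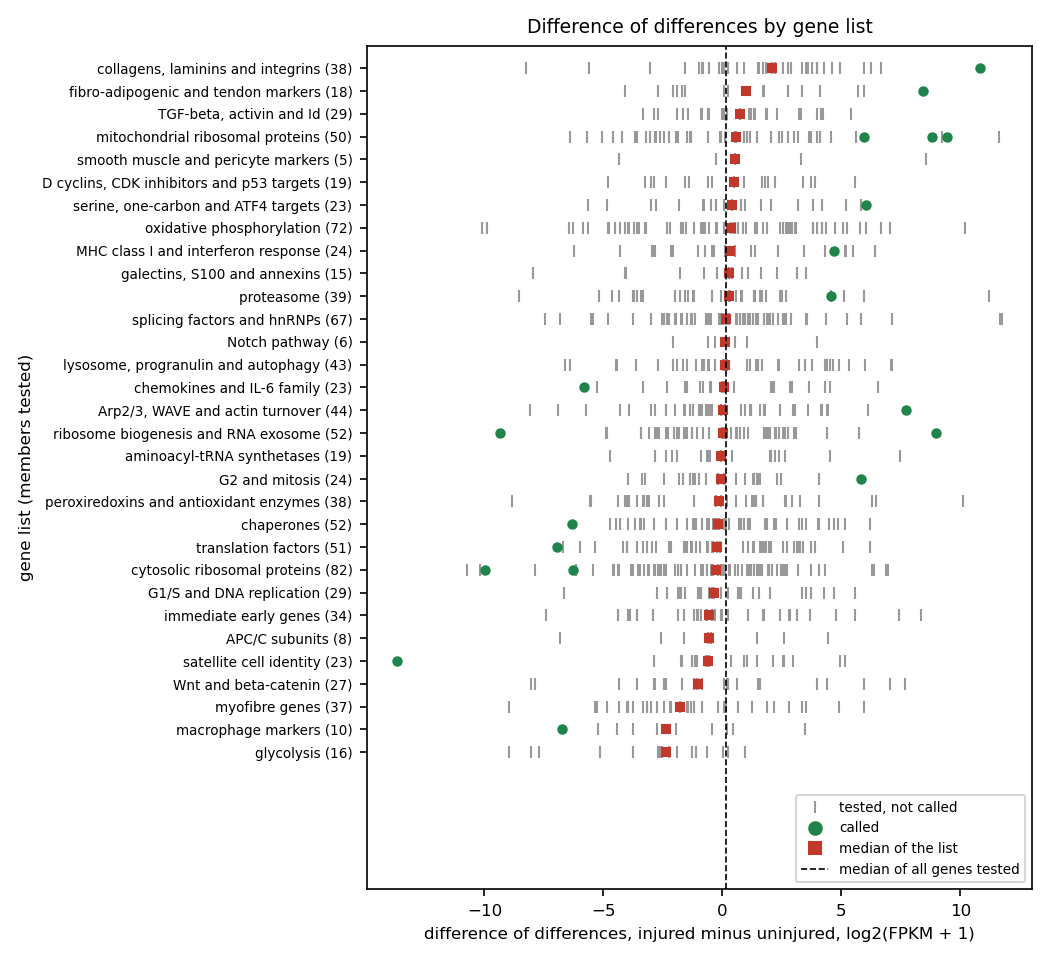
Difference of differences (x axis, log2(FPKM + 1) scale) of each tested member (ticks) and called member (green points) of 31 gene lists with at least 5 tested members (y axis, number tested in brackets), with red squares at the list medians. The dashed line is the median of all genes tested, 0.17, and list medians run between −2.39 and 2.1.

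The sequence before the start of the called genes was searched because FoxM1 binds DNA through its forkhead domain and also reaches mitotic genes through the CHR element. RefSeq promoters (250 bases before to 50 after the start, GRCm38.p6) were matched for 42 of the 54 genes, the one of lowest coordinate where a gene had several. For a minus-strand gene with several starts that is the most downstream start. The stretch searched can then lie inside the gene, as it did for Zeb2 and Bzw2. The forkhead letters CAAACAA, with T also allowed at the first and the fifth base, on either strand, were in 4 of these 42 (9.52%), in 9.97% of 3561 promoters of tested genes and in 17.2% of all 27025 promoters. The CHR letters TTTGAA or TTCGAA, on either strand, were in 8 of the 42 (19%), in 13% of those of tested genes and in 19.4% of all. Shown are Phf23 (chr11:69995516-69995815, plus strand) and Faim (chr9:98986123-98986422, plus strand), each with 1 forkhead match at positions −132 and −234 from the start, and Arpc3 (chr5:122391628-122391927, plus strand), with CHR matches at −211 and −123. Capitals mark the matches, which are descriptions of letters and not shown to be bound.
Phf23: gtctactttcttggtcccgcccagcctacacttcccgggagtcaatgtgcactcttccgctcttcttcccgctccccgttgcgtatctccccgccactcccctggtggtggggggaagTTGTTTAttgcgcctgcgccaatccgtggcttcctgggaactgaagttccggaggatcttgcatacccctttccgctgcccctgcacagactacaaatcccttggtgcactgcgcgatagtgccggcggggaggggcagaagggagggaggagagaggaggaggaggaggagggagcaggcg
Faim: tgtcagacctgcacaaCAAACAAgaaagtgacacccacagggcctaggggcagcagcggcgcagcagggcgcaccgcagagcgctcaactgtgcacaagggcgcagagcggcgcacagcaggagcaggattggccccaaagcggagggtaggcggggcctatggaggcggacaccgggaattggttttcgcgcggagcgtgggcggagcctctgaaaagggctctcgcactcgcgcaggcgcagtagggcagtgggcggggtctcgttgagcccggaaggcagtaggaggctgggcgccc
Arpc3: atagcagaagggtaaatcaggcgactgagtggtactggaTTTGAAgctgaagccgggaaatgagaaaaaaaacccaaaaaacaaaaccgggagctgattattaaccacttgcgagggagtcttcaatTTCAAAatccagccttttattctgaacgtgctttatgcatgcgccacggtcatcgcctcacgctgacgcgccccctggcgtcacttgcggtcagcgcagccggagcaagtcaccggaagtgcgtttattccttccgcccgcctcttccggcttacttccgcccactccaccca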

How the data were processed

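RNA of SCs was measured in 12 libraries of 4 groups, mapped to groups by the labels. The authors aligned reads to mm10 and estimated expression (their processing notes name Bowtie 0.12.9, Cufflinks 2.1.1 and HTSeq), and the values they deposited are FPKM, not counts. How reads were assigned to strands is not given in the sources used here, and 16 of the 54 called genes overlap another gene of the table. Here the interaction was fitted to log2(FPKM + 1) with limma 3.58.1 (R 4.3.3) over genes reaching 1 FPKM in 3 or more libraries, using 1 mean per group, a mean-variance trend and Benjamini-Hochberg adjustment. Depth was estimated from FPKM steps, since 95.9% to 99.3% of values of single-transcript genes were whole reads within 0.02 reads plus 0.1%.

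Named genes were the 12 largest and 12 smallest values among called genes with at least 5 FPKM in the highest group (leaving out predicted or clone names and genes of no protein, pseudogenes included), genes the study names, up to 4 per list, and crossing genes. A further part of the rule, for genes called with every library left out, named none. Other called genes, and Csf1r, Lyz2 and Ptprc, were named after their values were seen. The values of 1 called gene are not reported here. Members and lists were chosen with earlier results of these data known. Alternatives were pseudocounts of 0.1, 5 and 20, 3 filters, 2 scalings, no trend, array weights, a replicate block, protein-coding genes, leaving out libraries, and reads thinned once to 170700. limma's default array weights did not converge, so its gene-by-gene method was used. Each library was left out on the same 4956 genes. This was chosen after seeing the data, since the first run had applied the filter again to the 11 libraries left. How often the fit calls genes wrongly when weighted-sum libraries are present or a whole group is at 0 was not tested. Python 3.11.15, numpy 2.4.6, pandas 2.3.3 and matplotlib 3.10.9 made tables and figures.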

Additional observations from a re-analysis of the deposited data

Results flagged for a closer look

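Of the 54 called genes, 53 are listed here, each because its knockout difference differed between injured and uninjured SCs by the test of that difference (limma, adjusted p between 0.0369 and 0.048). None of the 54 was called without the 3 weighted-sum libraries, where their lowest adjusted p was 0.802. Values are differences of differences, injured minus uninjured, on the log2(FPKM + 1) scale. Among the genes at 0 in all 6 uninjured libraries, 14 had more positive values in injured SCs, Mrps21 with 8.8, Arpc3 with 7.73, Stx4a with 7.19, Gm43290 with 7.08, Prmt1 with 6.91, Rpl36-ps12 with 6.75, Fkbp11 with 6.42, Mthfd2 with 6.06, Tacc3 with 5.82, Lap3 with 5.23, Tmem45a with 4.85, Psmc2 with 4.57, Slpi with 4.19 and Lztr1 with 3.44. Among the genes at 0 in all 6 uninjured libraries, 12 had more negative values in injured SCs, Exosc4 with −9.36, Tyrobp with −6.74, Dhrs13 with −6.58, Traf7 with −6.34, Pwp1 with −6.32, 3110040N11Rik with −6.25, Ccl8 with −5.81, Myg1 with −5.63, Fundc2 with −5.26, Hbb-bs with −3.91, Cd300a with −3.25 and Plek with −3.24. Among the genes below 1 FPKM in all 6 injured libraries, 3 had more positive values in injured SCs, Faim with 6.43, Sh3rf2 with 5.74 and Irf9 with 4.7. Among the genes below 1 FPKM in all 6 injured libraries, 3 had more negative values in injured SCs, Ppp1r27 with −6.3, Mettl21c with −4.77 and Snx24 with −4.59. Among the genes measured in both conditions, 13 had more positive values in injured SCs, of which 12 are given here, Itgb5 with 10.82, Riok3 with 10.81, Adgre5 with 10.39, Mrpl10 with 9.44, Nolc1 with 8.97, Son with 8.77, Serpinf1 with 8.42, Phf23 with 8.02, Tsen34 with 6.64, Mrps17 with 5.93, Naa20 with 5.27 and Pex2 with 4.85. Among the genes measured in both conditions, 9 had more negative values in injured SCs, Msc with −13.66, Rpl37 with −9.98, Rpl37rt with −9.59, Cybc1 with −7.53, Zeb2 with −7.36, Eif5a with −6.94, Bzw2 with −6.8, Hsbp1 with −6.31 and Rps4x with −6.27. Gm43290 is annotated without a protein, and Rpl36-ps12 and Rpl37rt are pseudogenes, whose reads may come from other copies. Groups of 3 libraries are too small for a test of outlying samples.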

How the results depend on the processing

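The fit to 12 libraries called 54 genes, 30 more positive and 24 more negative in injured SCs. limma gave 0 calls in both directions in 6 of 14 other settings, namely pseudocounts of 5 (973 genes at an unadjusted p under 0.05) and 20 (838), no filter (1481 of 13775), quantile normalization (1042), the replicate block (1062) and the 3 weighted-sum libraries left out (245). A filter of at least 5 FPKM in at least 6 libraries gave 12 calls (5 more positive, 7 more negative), and one of at least 1 FPKM in at least 2 uninjured and 2 injured libraries gave 1 (1 and 0). More genes were called with a pseudocount of 0.1 (308, as 203 and 105), without the trend (146, as 81 and 65), with thinned reads (181, as 106 and 75) and with array weights (1089, as 609 and 480), which gave the 12 libraries weights between 0.141 and 13.2, highest for weighted-sum libraries. Median-ratio scaling gave 59 and protein-coding genes alone 51. Quantile normalization moved the median of all genes to −0.08, against 0.17.

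Leaving out 1 library gave 0 to 438 calls (0 to 310 more positive, 0 to 303 more negative). There were 264, 212 and 293 calls without FoxM1-cKO injured 1, 2 and 3, then 0, 136 and 438 without FoxM1fl/fl injured 1, 2 and 3. There were 144, 0 and 77 without FoxM1-cKO uninjured 1, 2 and 3, then 0, 116 and 387 without FoxM1fl/fl uninjured 1, 2 and 3. In the 9 fits with calls, 36 to 54 of the 54 genes were called, and 34 genes in each of the 9. With the filter applied again to the 11 libraries, which was the first form run, 4292 to 4874 genes were tested, the same 3 libraries gave 0, and the others gave 43 to 382 calls (0 to 305 more positive and 0 to 219 more negative over all 12). Same-numbered libraries did not deviate together (correlations between −0.0316 and 0.0544). With 3 libraries per group, and weighted-sum libraries among them, this cannot exclude that the numbers pair them. The cause of these changes was not tested. Over 163 named or listed genes, no called value changed sign in any setting. This gives the calls little support, since they were picked for large values and 49 of the 54 had a whole group at 0. Uninjured depth limits what a listing at 0 can show.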
